A study of Mus musculus with 12 samples.

Results

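Fam107a and the dexamethasone-responsive genes listed with it were followed through total RNA-seq libraries of cultured mouse oligodendrocyte precursor cells (OPCs). The list holds 7 genes of the 55536 in the quantified annotation: Fam107a, its paralog Fam107b, Sult1a1, Cftr, Rcan2, Cdh19 and Lgalsl. They were chosen by name with the Dexa against Ctr values of these libraries known, so that contrast is described here for the 7 genes and not tested. All 7 passed the filter on low counts (at least 10 counts in at least 4 libraries), as did 17919 genes in all.

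The cells were taken from pups aged P4 to P6, with several brains pooled for a culture, and were isolated either by sorting of Sox10-GFP cells or on CD140a beads. The reporter (Sox10:Cre with RCE:loxP-EGFP) marks the whole oligodendrocyte lineage and not OPCs alone, and which isolation served which library is not stated in the labels. All cultures shared the same medium with PDGFaa and bFGF. Ctr-OPCs were untreated and for 48 h Dexa-OPCs received dexamethasone at 1 µM and IFNg-OPCs received the cytokine IFN-γ at 100 ng/ml, with 4 labelled replicates a group from different litters. The labels also carry the model name EAE for every library, although the protocol describes pup cultures. Reads in genes ranged from 19209063 to 52074652 in the 11 complete tables. The table of Dexa replicate 3 is cut off after 33.7% of the transcripts and lists Fam107a, Cdh19 and Lgalsl whole but not the other 4 genes, so it entered no fit over all genes. On the label OPC, all 10 OPC markers on the list (among them Pdgfra, Cspg4 and Sox10) were expressed, with a summed level of 189547 to 439398 normalized counts in Ctr, 210179 to 488782 in Dexa and 127806 to 304484 in IFNg libraries. Some of these genes, such as Sox10, mark the whole lineage, so this sum does not separate OPCs from later stages. Mature oligodendrocyte markers summed to 7322 to 27963 in Ctr, 8192 to 29759 in Dexa and 5022 to 12912 in IFNg libraries. Astrocyte markers were present too, with sums of 21284 to 57862 in Ctr, 42051 to 72560 in Dexa and 38547 to 55674 in IFNg libraries. These sums are uneven, with Ctr means of 17399 for Slc1a3 and 9316 for Aldoc against 763 for Aqp4 and 20.2 for Gfap. They are therefore no measure of astrocyte content. In bulk RNA, fewer cells of a type and less RNA per cell cannot be told apart.

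Dexamethasone is a synthetic glucocorticoid. It binds the glucocorticoid receptor, encoded by Nr3c1, which then enters the nucleus and binds glucocorticoid response elements, palindromes of the arm AGAACA and its reverse complement TGTTCT around a spacer. The listed genes have unlike products: FAM107A is an actin-associated protein that is regulated by stress and glucocorticoids in brain, SULT1A1 a cytosolic sulfotransferase of phenols, CFTR a chloride channel of the ABC transporter family, RCAN2 an inhibitor of the phosphatase calcineurin, CDH19 a type II cadherin of neural crest and glial cells, and LGALSL a galectin-like protein. FAM107B is the closest relative of FAM107A.

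RefSeq promoter windows (GRCm38.p6) were found for 6 of the 7 genes, with no entry for Cdh19. The 250 bases before the RefSeq start site are printed for the inner start of Fam107a, to which its reads under dexamethasone were assigned, and for Sult1a1 and the inner start of Rcan2, whose pooled reads were split differently between annotated transcripts in Ctr and Dexa. Sequences run 5′ to 3′ on the gene's strand. Capitals mark the arms AGAACA or TGTTCT on either strand and, overlapping one arm, the looser palindrome GNACANNNTGTNC.
Fam107a inner start, chr14:8309780-8310029, minus strand: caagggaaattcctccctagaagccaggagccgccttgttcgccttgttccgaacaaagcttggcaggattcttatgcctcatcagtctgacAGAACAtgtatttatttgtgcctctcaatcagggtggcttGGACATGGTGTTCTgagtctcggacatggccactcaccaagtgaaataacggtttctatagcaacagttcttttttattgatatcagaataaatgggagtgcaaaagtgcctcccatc
Sult1a1, chr7:126676419-126676668, minus strand: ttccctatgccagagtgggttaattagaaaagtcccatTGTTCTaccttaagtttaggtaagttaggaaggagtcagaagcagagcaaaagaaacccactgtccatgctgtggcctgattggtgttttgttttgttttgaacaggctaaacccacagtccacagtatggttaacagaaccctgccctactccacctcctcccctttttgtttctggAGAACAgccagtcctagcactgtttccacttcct
Rcan2 inner start, chr17:43952749-43952998, plus strand: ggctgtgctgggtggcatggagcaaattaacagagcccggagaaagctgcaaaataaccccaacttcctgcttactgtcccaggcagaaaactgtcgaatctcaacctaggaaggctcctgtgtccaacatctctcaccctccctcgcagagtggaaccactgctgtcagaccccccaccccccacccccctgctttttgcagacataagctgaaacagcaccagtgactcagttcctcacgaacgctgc
The inner Fam107a window held 2 arms, which began 158 and 110 bases before the start site. The looser palindrome (GGACATGGTGTTC) began 118 bases before it and overlaps the second arm. Sult1a1 also held 2 arms, at 212 and 34 bases before its RefSeq start at 126676418. Among 32851 promoter windows of 250 bases, 16.1% held at least 1 arm, 1.81% held 2 or more, and 0.387% held the looser palindrome. The full palindrome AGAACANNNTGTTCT was found in 3 windows of all 32851 and in none of the members. For the outer start of Fam107a, RefSeq gives position 8317607, downstream of the GENCODE start at 8318023 on this strand. The RefSeq window there thus lies within the span of the GENCODE transcript and not before its start, and it is not printed. That outer window, all 3 Rcan2 windows and the windows of Fam107b, Cftr and Lgalsl held no arm, which says only that these letters are not in those 250 bases. The printed Rcan2 window lies before the first inner start, at 43952999. Rcan2-201, which took 72.6% of the Rcan2 reads in Dexa, starts downstream of it at 43953115. The bases between these 2 starts were not searched. GC content was 45.6% in the inner Fam107a window and in that of Sult1a1, against 62.8% in the outer RefSeq window of Fam107a, 76.4% for Cftr, 74.4% for Lgalsl and a median of 52.4% over all windows.

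Fam107a went from near absence to a readily measured transcript under dexamethasone. Its normalized counts (estimated counts divided by DESeq2's size factors) were 7.34, 7.43, 5.51 and 4.34 in Ctr replicates 1 to 4, and 1452, 1310.2 and 884 in Dexa replicates 1, 2 and 4. IFNg replicates 1 to 4 held 0, 6.61, 3.50 and 3.85. Every Dexa library stood far above every Ctr and IFNg library, and the Ctr and IFNg values overlapped. The Ctr and IFNg values are few reads, 4 to 12 in Ctr and 0 to 7 in IFNg libraries. The Dexa mean was 1215 ± 295 (SD, n = 3) against 6.16 ± 1.4996 in Ctr (SD, n = 4). The difference was 7.60 ± 0.37 (SE) on the log2 scale, a 194-fold difference with a 95% interval of 118 to 321. It ranked 1 among the 17919 genes by log2 fold change.

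Dexa replicate 3 was not used in that fit. It belongs to the libraries known when the members were chosen. It is also set against the same Ctr libraries, so its values are a description and no independent check. On a scale set over the genes it lists whole, Fam107a had 371 normalized counts there, against 1369, 1237 and 832 in Dexa replicates 1, 2 and 4 and 4.09 to 7.02 in Ctr. The library thus held 32.3% of the mean of the other Dexa libraries and still stood above every Ctr library. TPM values, which the authors scaled over the whole library, gave the same order, with 2.34 in Dexa replicate 3, 9.65, 8.43 and 5.75 in replicates 1, 2 and 4, and 0.0262 to 0.0586 in Ctr. By the ratio to Ctr replicate 3 (log2 5.91, with 1 added to each count), Fam107a ranked 1 of 6319 genes. Cdh19 in this library (1001.97) was at 90.3% of the mean of the other Dexa libraries and Lgalsl (2738) at 78.8%. All 3 members that it lists whole exceeded every Ctr library there, as did 21.4% of the 6319 genes. Among 23 other genes called higher with the 3 complete Dexa libraries and listed whole, 20 did so, with a median log2 ratio to Ctr of 1.34 for number 3 and of 1.63, 1.48 and 1.17 for numbers 1, 2 and 4.

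The Fam107a reads of the Dexa libraries were assigned to its inner start. GENCODE M21 annotates 4 transcripts on the minus strand of chromosome 14, of which 3 start inside the gene between positions 8309777 and 8309795 and 1 starts at 8318023 (GRCm38). All 3602 Dexa reads of the 4 libraries were assigned to the inner-start transcripts (100%, exact binomial 95% interval 99.9 to 100), with 1345, 1556, 195 and 506 in replicates 1 to 4. The outer-start transcript Fam107a-202 had 0 of these 3602 reads, which by counting alone allows a share of up to 0.0833%. The assignment is Salmon's estimate, and reads on sequence that the transcripts share do not separate the starts. The interval and this limit are therefore too narrow. Within the inner start, Fam107a-201 (4 exons, 3151 bases) took 86.8% of the Dexa reads and 85.2 to 88.4% in single libraries, Fam107a-203 (5 exons) took 12.7%, and Fam107a-204 took 0.493%. In Ctr, 28 of 32 reads were on the inner start, and the outer-start reads, 3.65 in estimated counts, lay in Ctr replicate 2. IFNg replicate 4 had its 3 reads on the outer start. Ctr and IFNg libraries thus hold too few reads for a firm split.

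**Figure D1:**
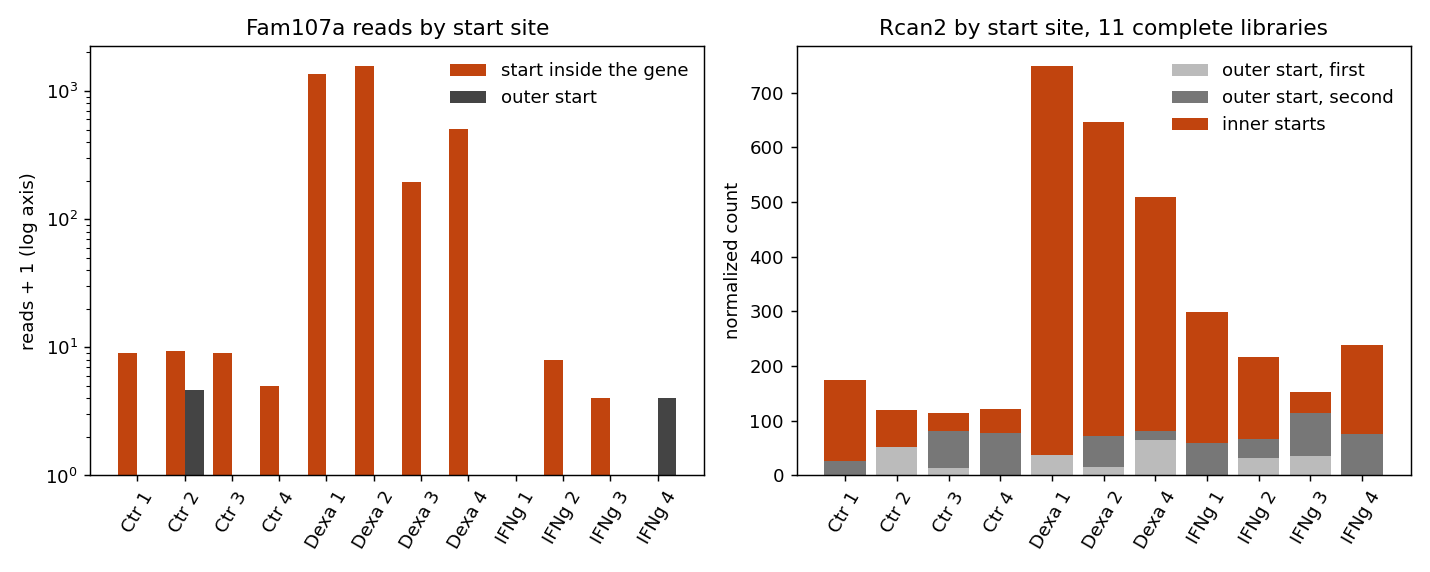
Left, Fam107a reads plus 1 (log axis) in each library by start site; right, Rcan2 normalized counts in the 11 complete libraries, stacked by start site. Dexa libraries hold 195 to 1556 Fam107a reads on the inner start and 0 on the outer start, and the Rcan2 bars are tallest in Dexa mainly through the inner starts.

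Sult1a1, which sulfates phenolic hormones and drugs, was the next highest of the members in fold. It had 11.9, 10.5, 11.02 and 3.26 normalized counts in Ctr replicates 1 to 4 and 242, 138 and 66.4 in Dexa replicates 1, 2 and 4. The lowest Dexa library was well above the highest Ctr library, and the Dexa libraries differed widely among themselves, with a mean of 149 ± 88.2 (SD, n = 3). With 1 added to each count, each was 12.1-fold to 18.8-fold above the Ctr library of its number. The fitted difference was 3.998 ± 0.55 (SE) on the log2 scale. The annotated transcripts also differed: Sult1a1-201 (7 exons) had 47 of 49 Ctr reads, whereas Sult1a1-202 (8 exons), which starts at 126676432 and so upstream of the start at 126676357, had 349 of 426 Dexa reads (81.9%, exact binomial 95% interval 77.9 to 85.5). Sult1a1-202 had 0 reads in 3 of 4 Ctr libraries. In Dexa replicate 4 it had 16.2 of 38 reads, a smaller part than in the other Dexa libraries and below the interval of the pooled reads. That interval does not measure the spread between cultures. The split is Salmon's estimate from few reads, and 9.35% of the 31-base words of Sult1a1 also occur in transcripts of other genes, nearly all in the pseudogene Gm6939, which had 0 counts in Dexa.

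Cftr, the chloride channel, was close to the detection limit without dexamethasone. Ctr libraries held 11.9, 7.43, 11.7 and 5.43 normalized counts, and Dexa replicates 1, 2 and 4 held 140, 75.8 and 85.6. No Dexa library overlapped a Ctr library. The difference was 3.45 ± 0.39 (SE) on the log2 scale. The level stayed low per length, at 0.311 ± 0.105 TPM in Dexa (SD, n = 3) against 0.0293 ± 0.0103 in Ctr (SD, n = 4).

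Rcan2, the calcineurin inhibitor, had 174, 120.2, 114 and 122 normalized counts in Ctr and 748, 646 and 508 in Dexa replicates 1, 2 and 4. All Dexa libraries lay above all Ctr libraries, by 2.26 ± 0.25 (SE) on the log2 scale. Reads of the inner starts (43952999 to 43953251 on chromosome 17) went from 73.4 ± 51.5 normalized counts in Ctr (SD, n = 4) to 570.3 ± 142 in Dexa (SD, n = 3). They made up 361 of 662 Ctr reads (54.5%, exact binomial 95% interval 50.6 to 58.4) and 1583 of 1751 Dexa reads (90.4%, 88.9 to 91.7). The outer starts held 16.1 ± 24.3 and 43.2 ± 36.1 in Ctr and 39.4 ± 25.0 and 24.4 ± 29.2 in Dexa, so their ranges overlapped. Between single Ctr libraries the inner share varied from 28.9 to 84.5%, wider than counting error allows, and in Dexa libraries from 84.01 to 94.97%, so that the ranges of the share overlapped.

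Cdh19 and Lgalsl were expressed without treatment and moved by less. Cdh19 had 523, 467, 428 and 412 normalized counts in Ctr and 1187, 1257 and 1085 in Dexa replicates 1, 2 and 4, a log2 difference of 1.36 ± 0.18 (SE). Lgalsl had 2318, 2223, 2131 and 2400 in Ctr and 3712, 3797 and 3547 in Dexa, a log2 difference of 0.70 ± 0.09 (SE), or 1.63-fold. The Lgalsl means were 3685 ± 127 in Dexa (SD, n = 3) and 2268 ± 116 in Ctr (SD, n = 4), and the groups did not overlap at this small fold. The rank by log2 fold change among all genes tested was 5 for Sult1a1, 9 for Cftr, 37 for Rcan2, 133 for Cdh19 and 575 for Lgalsl.

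Fam107b went against the label of the list. Its normalized counts were 1096, 724, 608 and 609 in Ctr replicates 1 to 4 and 994, 623 and 566 in Dexa replicates 1, 2 and 4. The groups overlapped, and the log2 difference was -0.06 ± 0.28 (SE), with a 95% interval of 0.657-fold to 1.40-fold. Each Dexa library was slightly below the Ctr library of its number, by log2 ratios of -0.14, -0.22 and -0.11 with 1 added to each count. Nearly all Fam107b reads (99.8% in Ctr, 99.7% in Dexa) were assigned to transcripts that start at 3713458 to 3713478 on chromosome 2. Fam107a and Fam107b transcripts could be told apart, since Fam107b shared none of its 31-base words with another member and 0.0230% with any other gene, and Fam107a shared 1.11%. In all, 6 of the 7 members had every complete Dexa library above every Ctr library, which 2.58% of the genes tested did, and 0.508% of the genes tested were called higher with DESeq2 at an adjusted p under 0.05. Both counts restate the choice of the members.

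**Figure D2:**
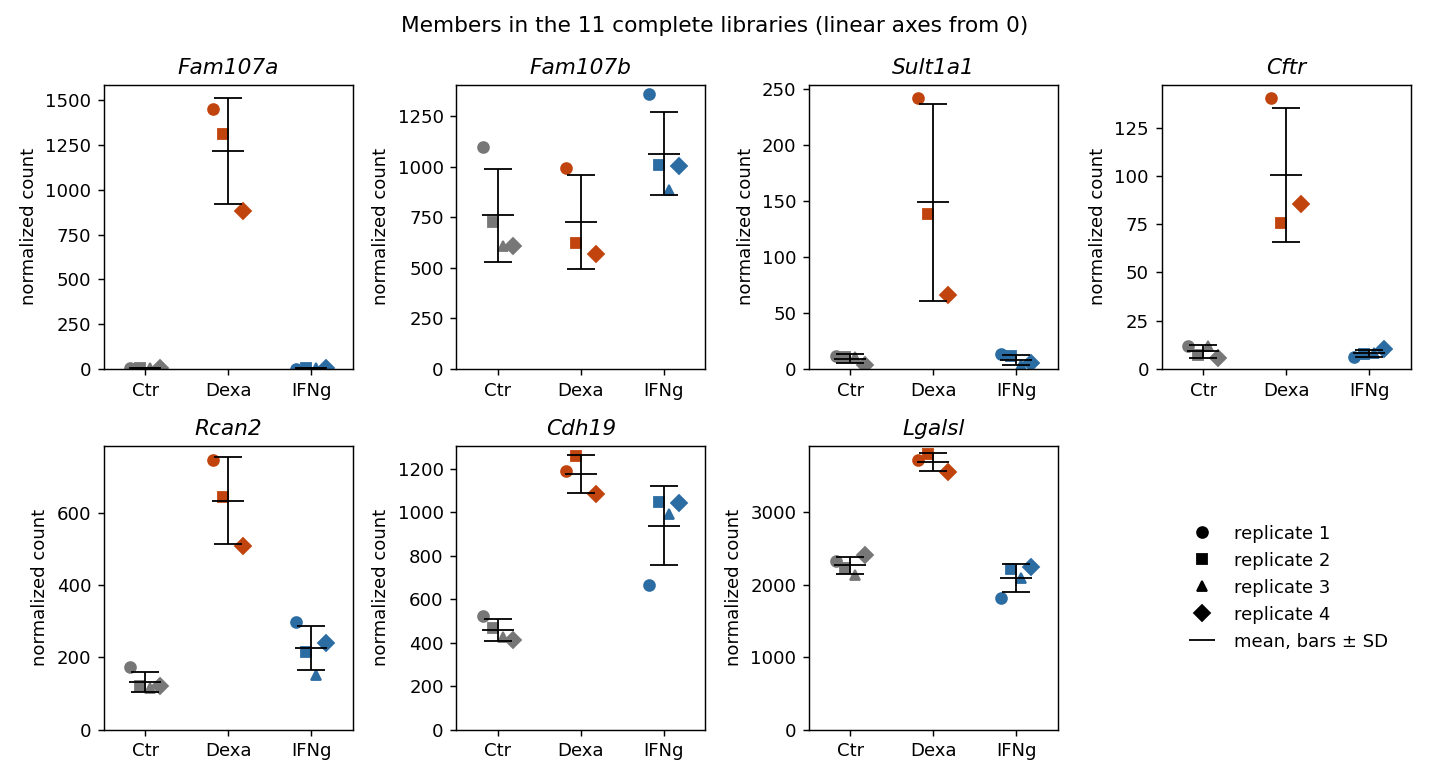
Normalized counts (linear axes from 0) of the 7 genes in the 11 complete libraries; symbols give the replicate number, horizontal marks the mean and bars the SD. Dexa points lie above all Ctr points for every gene except Fam107b, and IFNg points lie above all Ctr points for Cdh19.

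Per length, the order of the members changed with dexamethasone. In Ctr, Lgalsl was highest at 15.5 ± 0.87 TPM, followed by Fam107b at 4.90 ± 1.08, Cdh19 at 2.498 ± 0.23 and Rcan2 at 1.09 ± 0.20 (SD, n = 4), with no overlap between neighbours in this order. Sult1a1 (0.147 ± 0.0636), Fam107a (0.0407 ± 0.0136) and Cftr came last, and the ranges of neighbours overlapped among them. In Dexa, Lgalsl was again highest at 23.4 ± 1.96 TPM (SD, n = 4). Fam107a was next at 6.54 ± 3.24 (n = 4, Dexa replicate 3 included), but its range overlapped that of Cdh19, and the ranges of each following pair overlapped down to Sult1a1. Cftr remained lowest and apart. In IFNg the order was Lgalsl, Fam107b, Cdh19, Rcan2, Sult1a1, Cftr and Fam107a, with overlap between Fam107b and Cdh19 and among the last 3.

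The IFN-γ arm shows which of these genes a different stimulus also moved. It was not used to choose them, but it shares its Ctr libraries with the contrast that did. DESeq2's Wald test called 2 of the 7 members, both higher, where 8.02% of the genes tested were called higher and 12.8% in either direction. Cdh19 had 667, 1045, 993 and 1044 normalized counts in IFNg replicates 1 to 4, all above the highest Ctr library. It rose by 1.03 ± 0.16 (SE) on the log2 scale (DESeq2 adjusted p = 7.0e-09, edgeR quasi-likelihood adjusted p = 0.000789), and its adjusted p was at most 1.92e-06 when single libraries were left out. IFNg replicate 1 was lower than the other IFNg libraries. In normalized counts all 3 complete Dexa libraries exceeded all 4 IFNg libraries for Cdh19, but in TPM the ranges overlapped (5.20 to 6.75 in Dexa, replicate 3 included, and 4.06 to 7.39 in IFNg). Of all genes tested, 8.66% had every IFNg library above every Ctr library.

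Rcan2 had 299, 216, 153 and 239 normalized counts in IFNg replicates 1 to 4, of which replicate 3 overlapped the highest Ctr library. It was higher by 0.78 ± 0.24 (SE) on the log2 scale, past the threshold with DESeq2 (adjusted p = 0.0114) and not with edgeR (adjusted p = 0.0587), which called 8.44% of all genes. The DESeq2 call was lost without Ctr replicate 2, 3 or 4 or IFNg replicate 1 (adjusted p = 0.0631, 0.0604, 0.0575 and 0.0669). Within each replicate number the IFNg library was higher, by 1.33-fold to 1.96-fold with 1 added to each count, and with the replicate number as a block the adjusted p was 9.32e-07 with DESeq2 and 0.000791 with edgeR.

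Fam107b, whose Dexa and Ctr libraries overlapped, had 1360.2, 1010.01, 885 and 1002.6 normalized counts in IFNg replicates 1 to 4. Its range overlapped Ctr through Ctr replicate 1, and the log2 difference of 0.49 ± 0.26 (SE) was not called by DESeq2 (adjusted p = 0.247) or edgeR (adjusted p = 0.274). Each IFNg library was above the Ctr library of its number, by 1.24-fold to 1.64-fold on the same scale. With the replicate number as a block the difference was called by both tools (adjusted p = 5.39e-07 with DESeq2, 0.000317 with edgeR), in fits that called 29.2% of all genes with DESeq2 and 31.3% with edgeR. It was also called by DESeq2 without Ctr replicate 1 (adjusted p = 0.0166).

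For Fam107a, Sult1a1, Cftr and Lgalsl no IFN-γ difference was detected. Fam107a differed by -0.84 ± 0.54 (SE) on the log2 scale (DESeq2 adjusted p = 0.382), a ratio with a 95% interval of 0.270 to 1.16. At these read numbers neither a clear fall nor a slight rise was detectable. Sult1a1 had 12.9, 11.3, 3.50 and 5.14 normalized counts and Cftr 5.96, 7.55, 8.16 and 10.3 in IFNg replicates 1 to 4, inside or around their Ctr ranges, with log2 differences of -0.16 ± 0.58 and -0.23 ± 0.45 (DESeq2 adjusted p = 0.932 and 0.848). Lgalsl, with 1809, 2208, 2089 and 2245, was measured far more precisely, and its log2 difference was -0.12 ± 0.09 (adjusted p = 0.460), a ratio with a 95% interval of 0.819 to 1.03.

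**Figure D3:**
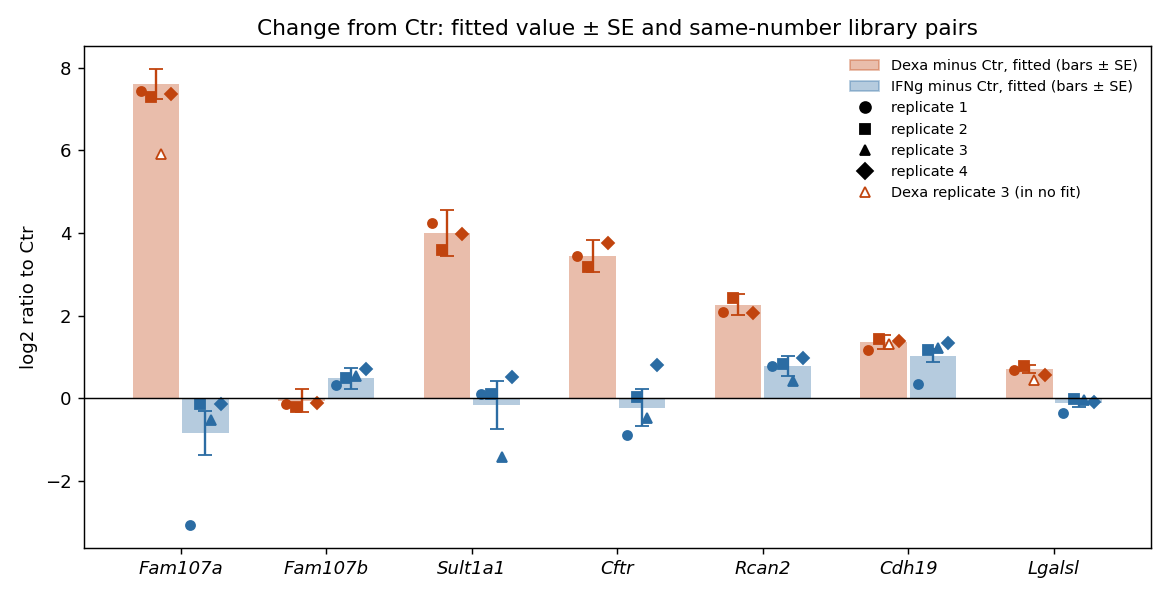
Log2 ratio to Ctr for each gene; shaded bars are DESeq2 estimates with SE bars for Dexa minus Ctr (orange) and IFNg minus Ctr (blue), points are ratios within a replicate number with 1 added to each count, and the open triangle is Dexa replicate 3. Fam107a reaches 7.60 in Dexa with replicate 3 at 5.91, Fam107b lies near 0 in Dexa, and the Cdh19 bars lie above 0 in both treatments.

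The families of the members were followed next. Lists of calcineurin and NFAT genes, sulfotransferases, ABCC and chloride transport genes, cadherins and catenins, and galectins held 89 genes, of which 68 were tested. DESeq2 called 0 of them in Dexa, where 0.547% of all genes were called, edgeR called 0 (0.123% of all genes), and 5 had an unadjusted p under 0.05 with DESeq2. Their median log2 difference was 0.04 (range -0.80 to 0.80) against -0.01 over all genes tested. With the replicate block in DESeq2, which called 2.57% of all genes, 3 were called, Ttyh1 and Cdh20 higher and Lgals1 lower. They are named here after their values were seen, and edgeR with the block did not call Ttyh1 (adjusted p = 0.138). The 13 tested partners of Rcan2 (calcineurin subunits, NFAT factors and regulators) had log2 differences of -0.27 to 0.09, and the 9 tested sulfotransferase and sulfate donor genes -0.14 to 0.30. Sult1b1, Sult1c2, Sult1d1, Sult1e1 and Sult2a1 had 0 counts in all Ctr and Dexa libraries.

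In IFNg, 17 of the 68 family genes were called (10 higher, 7 lower), 25% against 12.8% of all genes. edgeR called 14 of the 68 (8.44% of all genes), and DESeq2 with the replicate block called 35 (29.2% of all genes). Of the 7 tested genes on the galectin list, which also holds genes other than galectins, 3 rose. Lgals9, a secreted immune-regulatory galectin, rose by 7.89 ± 0.42 (SE) on the log2 scale. Lgals3bp, a galectin-binding glycoprotein, rose by 6.17 ± 0.29, and Lgals8 by 1.38 ± 0.15. Lgalsl did not pass. Of 21 tested cadherin and catenin genes, 4 rose and 2 fell. Those with the largest differences were Cdh12 (5.79 ± 0.81, from 4.68 to 260 normalized counts on average), Cdh7 (3.84 ± 0.40), Cdh6 (1.00 ± 0.20) and Cdh13 (-0.68 ± 0.17). Among calcineurin and NFAT genes, Akap5, an anchoring protein for calcineurin, fell by 1.04 ± 0.24 and Rcan3, a relative of Rcan2, by 0.41 ± 0.10. Of the sulfotransferase list, Sult6b1 rose by 2.01 ± 0.44, and Sult4a1 and the sulfate donor transporter Slc35b2 fell by 1.00 ± 0.26 and 0.42 ± 0.12. In the chloride transport list, Abcc4 and Clcn5 rose by 0.49 ± 0.11 and 0.52 ± 0.12, and Abcc10 fell by 0.42 ± 0.15 (edgeR adjusted p = 0.117).

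Genes long known to respond to glucocorticoids were read beside the members. The list was made with earlier results of these data known, so its counts are a description. Of 24 on the list 22 were tested. DESeq2 called 8 in Dexa, all higher, where 0.547% of all genes were called. The median log2 difference was 0.68 over the 22 against -0.01 over all genes. The largest were Hif3a (6.71 ± 0.74, SE), Mt2 (1.82 ± 0.39), Per1, a clock gene (1.70 ± 0.16), and Fkbp5, a co-chaperone of the receptor (1.47 ± 0.20). edgeR called 4 of the 22 (0.123% of all genes), Mt2 not among them (adjusted p = 0.186). The replicate block raised the DESeq2 count to 15, where 2.57% of all genes were called. The log2 difference of Fam107a was larger than that of every tested gene on this list, which restates its rank of 1 among all genes tested. The receptor gene Nr3c1 had 2835 ± 191 normalized counts in Dexa (SD, n = 3) and 3141 ± 110 in Ctr (SD, n = 4), a log2 difference of -0.15 ± 0.09 that was not called (DESeq2 adjusted p = 1), nor was it called in IFNg (adjusted p = 0.213). In IFNg, DESeq2 called 2 of the 22 higher and 3 lower, where 12.8% of all genes were called. Among the genes called, the largest differences were those of Cebpb (1.87 ± 0.49), Cdkn1a (1.21 ± 0.32), Zbtb16 (-0.56 ± 0.14) and Bcl6 (-0.42 ± 0.10). With the replicate block in DESeq2 6 rose and 6 fell, where 29.2% of all genes were called.

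**Figure D4:**
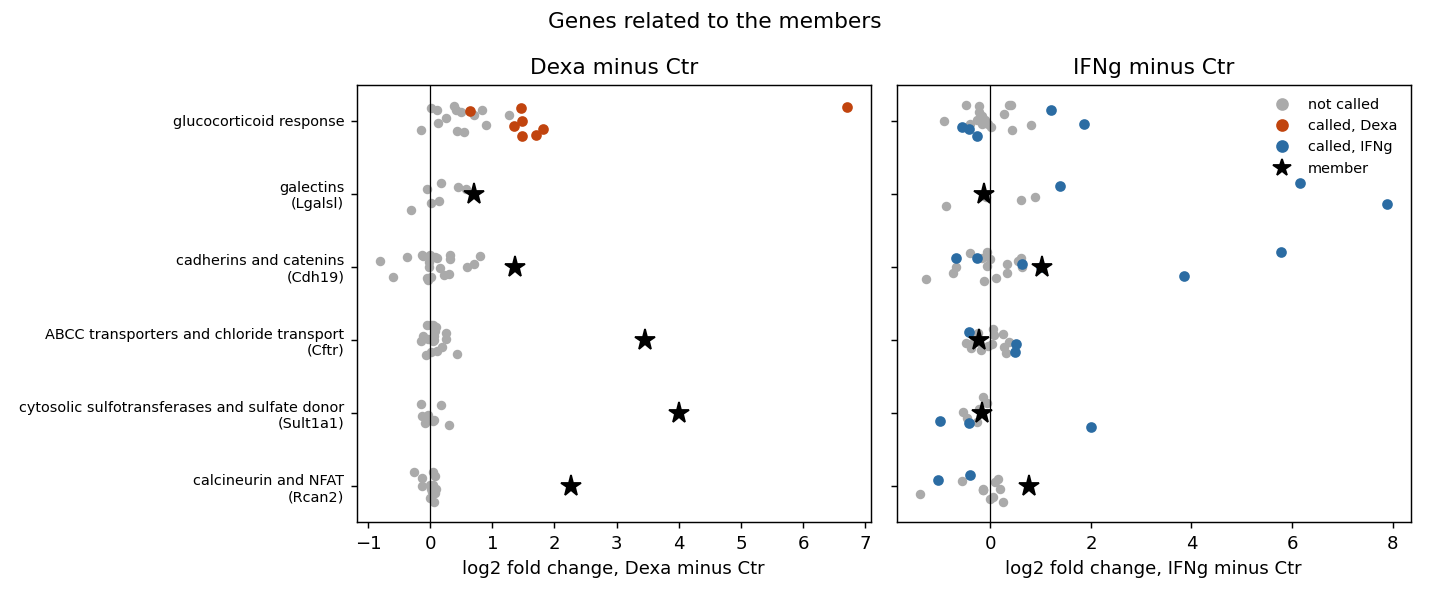
Log2 fold change of each tested gene on the family and glucocorticoid lists in Dexa minus Ctr (left) and IFNg minus Ctr (right); coloured points are called by DESeq2, grey points are not, stars are the member of each family, and vertical jitter carries no value. In Dexa the stars stand to the right of their families, whose 68 genes lie between -0.80 and 0.80.

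The neighbours of the members were read next, as the nearest tested gene on each side of each member, 14 in all and at 13.0 to 881 kb. In Dexa 0 of these 14 were called by DESeq2, where 0.547% of all genes were called, so a count of 0 is near the background. Kctd6, the nearest to Fam107a at 72.7 kb, differed by -0.15 ± 0.14 (SE) on the log2 scale. In IFNg, 3 of the 14 were called, where 12.8% of all genes were: Cdh7, next to Cdh19, Cyp39a1, next to Rcan2 (1.55 ± 0.43), and Peli1, next to Lgalsl (0.37 ± 0.08). The TEC-class entries Gm36944 and Gm38255, which lie on the same strand inside Cdh19, had 7.88 and 6.03 normalized counts on average in Ctr and 27.3 and 24.6 in Dexa, alongside Cdh19 itself. Sgf29 overlaps Sult1a1 on the opposite strand, and had 469 in Ctr and 460 in Dexa.

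Over the 11 libraries, the 5 genes whose log2 normalized counts were most like those of Fam107a by Pearson's r were Lgalsl (0.988), E230001N04Rik (0.972), Cftr (0.971), Gm37805 (0.948) and Per1 (0.947). These points share the 3 Dexa libraries that set them apart, and r is given as a description. Sult1a1 ranked 20 (0.909), Rcan2 90 (0.812) and Cdh19, which IFN-γ also raised, 835 (0.587). Fam107b was at -0.42. Lgalsl had the highest r with a log2 fold change of 0.70, and E230001N04Rik lay at 23.4 to 34.0 normalized counts in Ctr and at 76.9 to 107 in Dexa.

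Markers of other cell types were read beside these results. In Dexa, 0 of 10 tested OPC markers, 0 of 6 mature oligodendrocyte, 0 of 10 astrocyte, 0 of 3 microglia, 0 of 5 neuron, 0 of 6 fibroblast and 0 of 6 Schwann cell markers were called by DESeq2. Of 5 endothelial and mural markers, Flt1 was called (1.11 ± 0.30, edgeR adjusted p = 0.515). Astrocyte markers had a median log2 difference of 0.41, with Gfap at 1.91 ± 0.64 (DESeq2 adjusted p = 0.302) and Aldoc at 1.07 ± 0.30 (adjusted p = 0.0615), and mature oligodendrocyte markers one of 0.58. The 6 tested Schwann cell markers, read because Cdh19 is also known from that lineage, had a median log2 difference of 0.31 (range -0.57 to 0.78). In IFNg, Gfap (3.82 ± 0.59), Aldoc (0.78 ± 0.28), Syt1 (1.10 ± 0.20), Lum (3.86 ± 0.91) and Egr2 (1.64 ± 0.21) were called higher, and C1ql1 (-2.20 ± 0.66) and S100a4 (-2.27 ± 0.83) lower, of which edgeR did not call Aldoc, C1ql1 and S100a4. With the replicate block, DESeq2 called 1 OPC (Cspg4, adjusted p = 1.0e-08), 2 astrocyte (Aldoc, 2.81e-07, and Gfap, 0.00117), 1 neuron (Snap25), 1 endothelial (Flt1) and 1 Schwann cell marker (Pmp22) in Dexa, all higher, where 2.57% of all genes were called. edgeR with the block did not call Gfap (adjusted p = 0.108) or Pmp22 (adjusted p = 0.0553). In IFNg, 7 of the 10 OPC markers were called lower with the block by both tools, where 29.2% of all genes were called by DESeq2 and 31.3% by edgeR. The 10 astrocyte markers moved both ways in IFNg. Their log2 differences ran from -1.60 (S100b) to 3.82 (Gfap), with a median of 0.28. With the block, DESeq2 called 5 of them higher and 4 lower, and edgeR 4 higher and 4 lower. The part of these markers in the members' changes was not tested.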

How the data were processed

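Total RNA of 12 OPC libraries (3 groups of 4 labelled replicates, strand-specific, ribosomal RNA depleted) had been quantified by the authors with Salmon 0.8.2 after trimming. Each deposited table gives, for every transcript of 1 library, an estimated count and a TPM value. Submitters' processing notes also name STAR, DESeq2, mm10 and GRCm38. Transcript identifiers all matched GENCODE M21 (GRCm38). The authors' 3 deposited DESeq2 tables hold their own comparisons (fold changes and p-values) and were not used. The members and the gene lists were chosen with earlier results of these data known.

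Per gene, the estimated counts of its transcripts were added up and rounded (55536 genes). The table of Dexa replicate 3 lists 47855 of 141862 transcripts, and served only where all transcripts of a gene are in it. A gene was tested if 4 or more of the 11 libraries had at least 10 counts (17919 genes). The test was DESeq2 1.42.0's Wald test over 11 libraries without covariate, in R 4.3.3, with Benjamini-Hochberg adjustment over all genes tested and a threshold of 0.05. Counts of 17919 genes were simulated with 200 changed in the IFNg against Ctr comparison and an unchanged Dexa arm. DESeq2 made 216 calls, 158 of them among the changed genes, and 13 calls in the Dexa arm. edgeR made 135 calls, 129 of them among the changed genes, and 0 in the Dexa arm. On these counts DESeq2 thus made more false calls than its threshold of 0.05 allows. The simulated libraries were drawn without the pairing by replicate number described below. They also held 200 changed genes, where DESeq2 called 2302 in the real IFNg comparison. The share of false calls in the real data was therefore not measured. Alternatives were edgeR 4.0.16's quasi-likelihood test with TMM, TMM factors in DESeq2, no filter, the replicate number as a block, each pair of groups alone, all 12 libraries, TPM on the log2(TPM + 0.1) scale, which understates changes of low genes, and leaving out each library. Replicate numbers pair the libraries: deviations from the group means correlated at 0.404 to 0.722 in the 10 pairs of libraries with the same number and at -0.614 to 0.495 in 30 pairs with different numbers. Libraries of a group differed by more than sampling noise (chi-square per degree of freedom 22 to 223).

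Start sites of one gene within 500 bases were treated as 1 site. Intervals of read shares are exact binomial at 95% and, like the limit of 3 reads that a count of 0 allows, cover counting error only, since PCR copies were not told apart. They take Salmon's assignment of reads to transcripts as given. They also pool the libraries of a group, so they do not measure the spread between cultures. The depth, 19209063 to 52074652 reads in genes, leaves genes under about 10 counts with a large counting error. Genes named are the 7 members, of each list at most 4 called genes per comparison by size of the log2 fold change, Nr3c1, the nearest tested gene on each side of each member, and the 5 genes most like Fam107a.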

Additional observations from a re-analysis of the deposited data

Results flagged for a closer look

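In 17 groups of 4 values of the members, 3 libraries stood apart from the others of their group by Dixon's criterion (gap over range above 0.829), which chance flags in about 1 in 20 groups. Sult1a1 was low in Ctr replicate 4, at 3.26 normalized counts against 10.5 to 11.9 in the other Ctr libraries (gap over range 0.839), which are 3 and 13 to 17 reads. Rcan2 was high in Ctr replicate 1, at 174 against 114 to 122 (0.879). Cdh19 was low in IFNg replicate 1, at 667 against 993 to 1045 (0.863), and without this library its IFNg log2 difference was 1.17 in place of 1.03.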

How the results depend on the processing

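No member changed direction in a called comparison under any alternative tried. The median Dexa log2 difference of the 7 members, 2.26, was 1.64 on the log2(TPM + 0.1) scale, whose added constant holds down genes near 0 TPM (Fam107a 5.81, Cftr 1.64), and Fam107a was 7.34 over all 12 libraries and 5.39 in TPM with Dexa replicate 3. With edgeR, 1 member was called in IFNg in place of 2, and leaving out single libraries gave 1 to 3. With the replicate block the DESeq2 calls in all genes went from 98 to 460 in Dexa and from 2302 to 5238 in IFNg, and calls in the 6 lists of related genes from 8 to 18 and from 22 to 47. edgeR called 22 and 1513 genes, and 4 related genes in Dexa. edgeR with the block called 282 and 5606 genes, and 13 and 50 related genes. Of the members, the block in DESeq2 changed the call of Fam107b alone. The Dexa difference of Fam107b ran from -0.35 without Dexa replicate 1 to 0.17 without Ctr replicate 1. Over the genes that Dexa replicate 3 lists whole, with fewer genes tested, 22 and 834 genes and 2 and 11 related genes were called. Leaving out single libraries gave 60 to 112 Dexa calls, fewest without Dexa replicate 2, and 5 to 10 related genes, fewest without Dexa replicate 1. Why the tools differ was not tested. Depth limits Fam107a, Sult1a1 and Cftr in Ctr and IFNg libraries, where they held 0 to 17 reads, so small differences of these genes were not detectable.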
